A study of Homo sapiens with 4 samples.

Results

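Peaks shared by cohesin and CTCF inside exons of protein-coding genes were examined in the HG00731 LCL. The members were chosen by the deposited peak positions and SMC1 summits, set against gene annotation: an SMC1 peak on chromosomes 1 to 22 had to overlap a CTCF peak by at least 1 bp, lie over 1 kb from every annotated transcript start, and have its SMC1 summit in an exon of a protein-coding gene. This rule gave 1457 of the 94628 SMC1 peaks on these chromosomes, or 1457 of the 30893 shared peaks over 1 kb from starts. Of the remaining shared peaks over 1 kb from starts, 14454 had the summit in an intron and 14982 lay outside coding genes. Annotation was GENCODE release 44 on hg38.

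Cohesin FA-EGS HiChIP (antibody to SMC1, cells fixed with formaldehyde and then with the longer cross-linker EGS) and CTCF HiChIP (cells fixed with formaldehyde alone) were each done in 2 replicates of the same untreated cell line. HG00731 is 1 lymphoblastoid cell line, that is, B cells immortalised with Epstein-Barr virus, and no RNA was measured, so its cell type was not checked against marker genes. The files pool the replicates of each target into 1 peak list and 1 loop list, so no value here has a spread between replicates and no test was made. Intervals are at 95% and cover counting error only. They treat peaks and loops as independent, although neighbouring peaks can share an anchor and 1 peak can hold many loops. Because the antibody and the fixation differ together, SMC1 and CTCF values are not compared with each other.

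CTCF is a zinc finger protein that binds a long, asymmetric DNA motif, and cohesin is a ring-shaped complex that extrudes chromatin loops. Extrusion is known to halt where cohesin meets a bound CTCF from the side its motif faces, so loops often join motifs that point towards each other. SMC1 is one of the core subunits of the ring. Most such sites lie in introns and between genes, where the DNA carries no protein code. Where a CTCF motif lies in coding sequence, the same bases serve as codons and as the motif.

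The motif matches of the named sites that lay wholly in coding sequence are shown first, because there the CTCF motif and the codons are the same bases. Each is read on the strand of its motif, 5′ to 3′, with the 19 bp of the match in capitals. All but THSD4, which is shown as the match alone, have neighbouring bases in lower case, and the positions are those of the whole stretch printed. The MAP3K14 stretch lay at chr17:45271004-45271052 on the minus strand with a match of 18.2 bits, the KIF24 stretch at chr9:34256296-34256344 on the plus strand with 17.7 bits, and the ZNF142 stretch at chr2:218648645-218648693 on the minus strand with 16.6 bits. The TTLL8 stretch lay at chr22:50030439-50030487 on the minus strand with 15.8 bits, STAC3 at chr12:57243827-57243875 on the minus strand with 15.4 bits, NTNG1 at chr1:107430813-107430861 on the plus strand with 15.2 bits, and THSD4 at chr15:71731186-71731204 on the plus strand with 13.7 bits.
MAP3K14: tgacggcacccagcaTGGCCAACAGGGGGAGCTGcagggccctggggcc
KIF24: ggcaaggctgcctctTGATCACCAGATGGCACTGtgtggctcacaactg
ZNF142: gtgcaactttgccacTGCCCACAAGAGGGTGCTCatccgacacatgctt
TTLL8: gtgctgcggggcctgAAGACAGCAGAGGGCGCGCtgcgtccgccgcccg
STAC3: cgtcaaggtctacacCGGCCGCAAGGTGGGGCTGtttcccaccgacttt
NTNG1: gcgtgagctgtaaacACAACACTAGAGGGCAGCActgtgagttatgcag
THSD4: CAGCCCCCAGGTGCCACCC

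For comparison, matches outside coding sequence are shown as the 19 bp alone. They belong to the sites named below for their q-value or read pairs, and the 5 with the highest score were taken after the values were seen. The CAPN2 match lay at chr1:223749312-223749330 on the minus strand in an exon of a non-coding transcript (22.9 bits). The other 4 lay in 3′ UTRs: GPR3 at chr1:27395558-27395576 on the minus strand (22.8 bits), RIN3 at chr14:92687058-92687076 on the plus strand (21.5 bits), ZC3H10 at chr12:56126339-56126357 on the plus strand (19.2 bits) and SECTM1 at chr17:82321608-82321626 on the minus strand (19.1 bits).
CAPN2: CGGCCACCAGGTGGCAGCG
GPR3: TGGCCACCAGAGGGCAGTC
RIN3: CGGCCACAAGGGGGCAGCC
ZC3H10: TCACCACCAGGTGGCACCT
SECTM1: CCACCGCCAGGGGGCAGCG

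Exonic shared peaks lay mostly towards the ends of genes. The SMC1 summit fell in a 3′ UTR in 785 of 1457 (53.9%, 51.3 to 56.4), in coding sequence in 479 (32.9%, 30.5 to 35.3), in an exon of a transcript without a coding sequence in 177 (12.1%) and in a 5′ UTR in 16 (1.10%). By exon, 997 (68.4%) lay in the last exon of the transcript chosen for the peak, 410 in an internal exon and 26 in a first exon. Another 24 lay in a chosen transcript with 1 exon. The median summit was 88.7% of the way from the start of its gene to the end. The final 25% of the gene held 973 (66.8%), the first 25% held 99 (6.80%), and 307 (21.1%) lay within 1 kb of the gene end.

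This distribution followed the exonic sequence that the rule leaves. Of the 67.96 Mb of exons over 1 kb from every start, 52.2% is 3′ UTR, 32.2% coding, 14.3% non-coding transcript and 1.33% 5′ UTR. The density was 22.1 peaks per Mb in 3′ UTRs and 21.9 per Mb in coding sequence, against 18.2 per Mb in exons of non-coding transcripts. For the 1112 members in an exon of the canonical transcript, 755 (67.9%, 65.1 to 70.6) lay in the last exon, which holds 66.3% of those bases. A further 339 (30.5%, 27.8 to 33.2) lay in internal exons, which hold 31.8%.

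**Figure D1:**
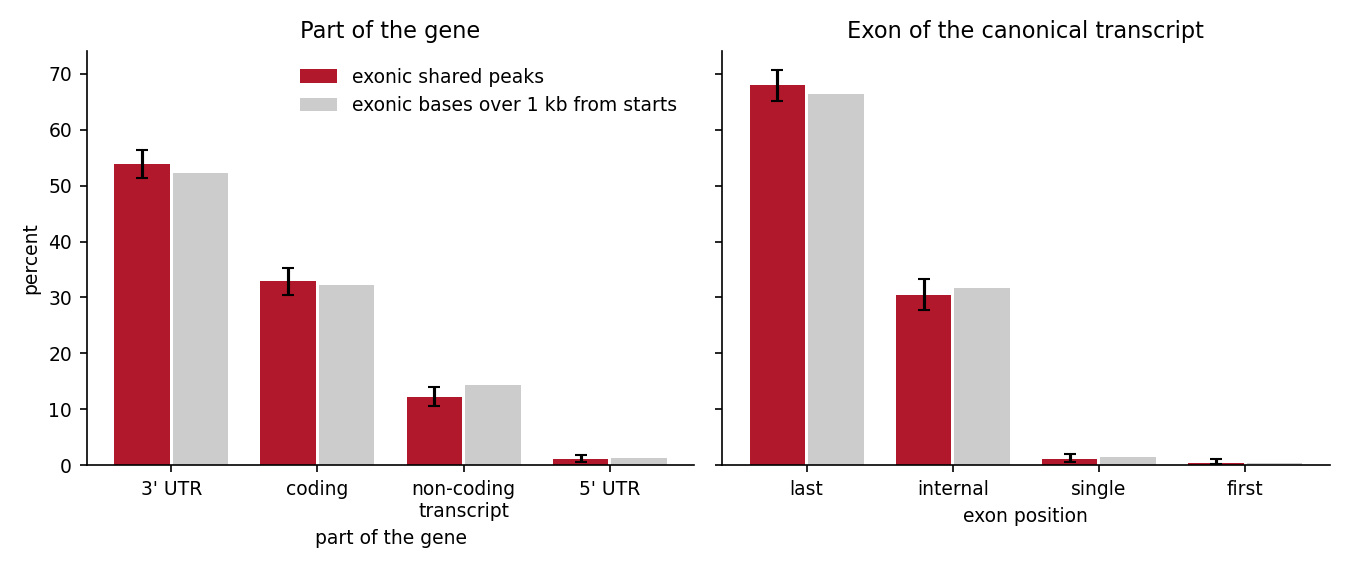
Percent of exonic shared peaks (red, bars with 95% Wilson intervals) and percent of exonic bases over 1 kb from every start (grey) by part of the gene, left, and by exon of the canonical transcript, right. The 3′ UTR holds 53.9% of peaks and 52.2% of bases, and the last exon 67.9% of peaks and 66.3% of bases.

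Exons held more shared peaks than their length alone would give. They took 4.72% (4.49 to 4.96) of the shared peaks over 1 kb from starts and 2.54% of the bases over 1 kb from starts. The share was close for SMC1 peaks without CTCF: of 38599 such peaks over 1 kb from starts, 1710 (4.43%, 4.23 to 4.64) had the summit in an exon. For peaks the 1 kb was measured from the peak edge and for bases from each base, so these rules differ. The bases also include assembly gaps. Measured from the SMC1 summit, exons took 5.06% (4.83 to 5.31) of the shared peaks. GC content within 100 bp of the summit moved with the location, with a median of 50.2% in exonic, 44.8% in intronic and 45.8% in shared peaks outside coding genes. Its part in the exonic share was not tested.

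Coding members usually spanned more than their exon. The median exon was 203 bp long for a coding summit and 3282 bp for a 3′ UTR summit, and the median SMC1 peak was 850 and 931 bp wide. The peak covered the whole exon in 285 of 479 coding members (59.5%) and in 35 of 785 3′ UTR members (4.46%). The median distance from a coding summit to the nearest exon edge was 54 bp. The SMC1 and CTCF summits were a median of 45 bp apart (43 to 50), against 54 bp in intronic shared peaks and 49 bp (48 to 51) outside coding genes. The CTCF summit lay in an exon of the same gene in 1255 of 1457 (86.1%), but in 339 of 479 coding members (70.8%). For the others, a summit in the exon does not place CTCF there.

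The members fell in 1339 genes, 7.01% of the 19111 coding genes on these chromosomes, with each member counted for 1 gene. Of these genes, 1232 had 1 member, 97 had 2 and 10 had 3 or more. The summit lay in exons of more than 1 coding gene for 34 members. The exon belonged to the canonical transcript of the gene for 1112 members (76.3%).

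Exonic and intronic shared peaks were close in SMC1 strength. The CTCF −log10 q-value was higher in exonic than in intronic ones and close to that outside coding genes. Fold enrichment, the deposited ratio of summit signal over local background, had a median of 4.43 (4.27 to 4.60) for SMC1 in exonic, 4.43 in intronic and 4.82 in shared peaks outside coding genes. Coding members had a median of 4.35 and 3′ UTR members 4.51. The median SMC1 −log10 q-value was 30.6 (27.9 to 33.6) in exons, 29.5 in introns and 35.0 outside coding genes. For CTCF, the median fold enrichment was 6.55 (6.30 to 6.79) in exonic members, 6.36 in intronic ones and 7.10 outside coding genes. The median −log10 q-value was 42.8 (39.6 to 48.2), 33.4 (32.5 to 34.5) and 43.8 (42.5 to 45.3). Exonic SMC1 peaks without CTCF were weaker, with a median SMC1 fold enrichment of 2.67 and a median −log10 q-value of 6.18.

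The 8 members with the highest SMC1 −log10 q-value lay in coding exons, 3′ UTRs and 1 exon of a non-coding transcript. CAPN2, which encodes the large subunit of the protease m-calpain, led with 463 and a fold enrichment of 11.2, at chr1:223748913-223750453. Its exon belongs to a non-coding transcript of 2 exons inside the gene. TTLL8, a tubulin glycylase gene, followed with 430 and a fold enrichment of 12.2, at chr22:50029517-50031693. That summit lay in coding exon 13 of 14. RIN3, a RAB5 exchange factor gene, had 373 and 13.1 at chr14:92686567-92687432, in the 3′ UTR of a transcript of 4 exons.

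Coding exons also held the peak of NTNG1, the netrin G1 gene, in exon 6 of 8 (−log10 q-value 300, fold enrichment 13.5, chr1:107430507-107431807). DHRS1, a short-chain dehydrogenase gene, held 299 and 7.73 in exon 3 of 9. BCL7A, which encodes a subunit of the BAF chromatin remodelling complex, held 287 and 8.49 in exon 5 of 6. No motif match of 13 bits lay within 200 bp of the CTCF summit at BCL7A. The last 2 of these 8 peaks were in 3′ UTRs, SECTM1 with 296 and BCAT2, the mitochondrial branched-chain aminotransferase gene, with 274. SECTM1 had the highest fold enrichment of these 8 peaks, 14.4.

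Motif matches were searched with a 19 bp matrix of 15.1 bits, learned from 3000 CTCF summits that were in no coding-gene exon and in no member. Within 50 bp of the CTCF summit, 312 members (21.4%, 19.4 to 23.6) held a match of at least 10 bits, against 18.9% of all shared peaks. A search within 200 bp and from 13 bits was added after the data were seen. It found a match in 583 members (40.01%, 37.5 to 42.6), against 36.7% of all shared peaks, 37.0% of intronic and 41.6% of shared peaks outside coding genes. The centres of these matches lay a median of 65 bp (58 to 72) from the CTCF summit. At points 2 kb away, the wide search found 3.71% (2.85 to 4.80) for exonic members and 2.22% for intronic peaks. Coding members held a wide match in 39.2% and 3′ UTR members in 41.7%, with intervals that overlap.

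**Figure D2:**
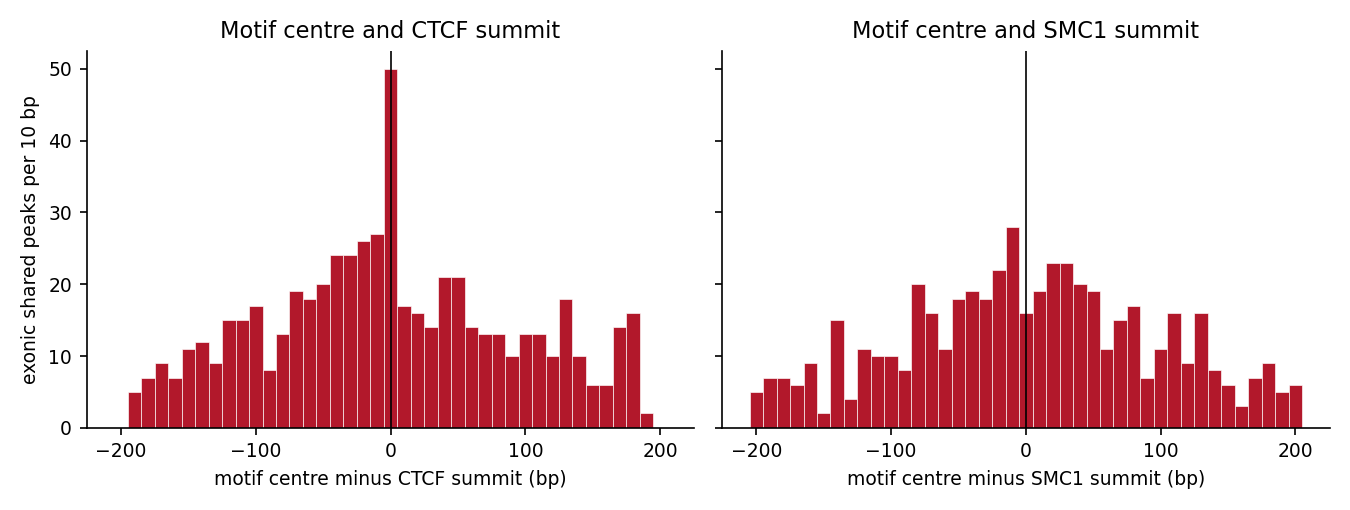
Number of exonic shared peaks per 10 bp by the position of the motif centre relative to the CTCF summit, left, and to the SMC1 summit, right, for matches of at least 13 bits within 200 bp of the CTCF summit. The tallest bar, 50 of 583 matches, is at the CTCF summit, and 512 of the 583 centres lie in the range plotted around the SMC1 summit.

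Members with a motif were the stronger ones. Their median SMC1 fold enrichment was 5.38, against 3.88 for the 874 members without a wide match, and the median CTCF fold enrichment was 8.56 against 5.40. Intronic shared peaks gave 5.45 with and 3.92 without a match for SMC1. The motif had no preferred strand relative to the gene: 305 of 583 (52.3%, 48.3 to 56.3) were on the sense strand, 53.2% for coding and 51.4% for 3′ UTR members.

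The motif itself usually lay in the exon. Its centre was in an exon of a coding gene for 497 of 583 members (85.2%), 314 of 327 for 3′ UTR summits and 128 of 188 for coding summits. In 123 members the whole match was coding sequence. On the sense strand, the first base of these matches was at codon position 1 in 25, position 2 in 11 and position 3 in 28 of 64. On the antisense strand, the first base along the gene was at position 1 in 30, position 2 in 16 and position 3 in 13 of 59.

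Matches in coding sequence that no peak covered showed a like order of frames. All coding sequence of canonical transcripts over 1 kb from starts held 2334 matches of at least 13 bits. Of the sense matches in neither a CTCF nor an SMC1 peak, 30.8% were at codon position 1, 13.4% at position 2 and 55.8% at position 3 (n = 865). The members gave 39.1% (28.1 to 51.3), 17.2% (9.88 to 28.2) and 43.8% (32.3 to 55.9). On the antisense strand, uncovered matches gave 43.5%, 29.8% and 26.7% (n = 1051), and the members 50.8%, 27.1% and 22.03%. Each value of uncovered matches lay within the interval of the members.

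Few of the coding matches were occupied, and occupancy rose with the score. A CTCF peak covered 375 of the 2334 (16.1%, 14.6 to 17.6) and an exonic shared peak 155 (6.64%). For matches of 13 to 15 bits a CTCF peak covered 134 of 1518 (8.83%, 7.50 to 10.4), and for those of 19 bits or more 45 of 74 (60.8%, 49.4 to 71.1). Exonic shared peaks covered 3.49% (2.68 to 4.54) and 28.4% (19.4 to 39.5) of the same classes. The search and the peaks both draw on the CTCF summits, although the matrix was learned outside coding-gene exons.

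**Figure D3:**
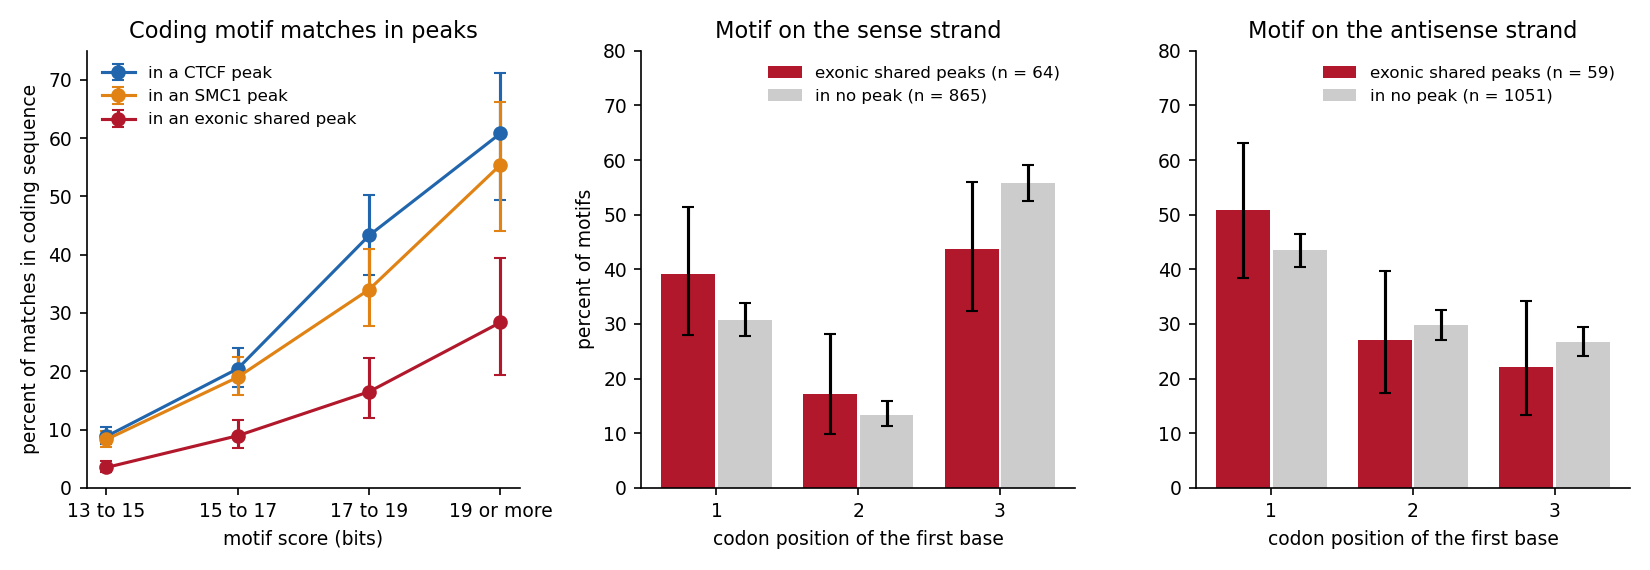
Left, percent of motif matches in coding sequence that lie in a CTCF peak, an SMC1 peak or an exonic shared peak, by motif score in bits. Middle and right, percent of motifs by codon position of their first base along the gene, on the sense and the antisense strand, for exonic shared peaks (red) and for matches in no peak (grey). Bars and whiskers are 95% Wilson intervals. Occupancy by CTCF peaks goes from 8.83% to 60.8%, and codon position 2 is the least used on the sense strand in both sets.

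Loops were taken from the 2 deposited nf-HiChIP loop lists, in which each loop joins 2 anchors of 5 kb. The list labelled SMC1 holds 28012 loops and the list labelled CTCF holds 80487. The study's own summary gives 80487 loops for SMC1 and 28012 for CTCF, the reverse of these labels. The labels of the lists therefore appear to be exchanged, which was not tested here. Both lists are given under their labels, so values labelled SMC1 may belong to CTCF and the reverse. The loop caller takes the peaks as input, so a place in an anchor is not independent of being a peak.

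Exonic shared peaks were often anchors. They overlapped an anchor of the loops labelled SMC1 in 556 of 1457 (38.2%, 35.7 to 40.7), against 22.3% of all SMC1 peaks, and of the loops labelled CTCF in 1045 (71.7%, 69.4 to 74.0), against 51.4% of all SMC1 peaks. Intronic shared peaks gave 30.01% (29.3 to 30.8) and 64.6% (63.8 to 65.3), and shared peaks outside coding genes 30.6% and 62.6%. Shared peaks within 1 kb of a start were in anchors about as often as the members, with 38.5% (37.7 to 39.4) and 69.8% (69.0 to 70.6). Anchors of both lists held 537 members (36.9%) and neither list held 393 (27.0%). By part of the gene, 40.0% of 3′ UTR members and 35.3% of coding members were in an anchor labelled SMC1, and 74.1% (71.0 to 77.1) and 66.8% (62.5 to 70.9) in an anchor labelled CTCF. Exonic SMC1 peaks without CTCF had 15.0% and 38.8%.

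Exonic and other shared peaks were set side by side for their share in anchors labelled SMC1. This was done by peak strength and, separately, by distance to a start, but not by both together. Members were divided by SMC1 −log10 q-value into 4 classes of nearly equal size. In the lowest class, up to 13.6, the share in anchors labelled SMC1 was 22.7% (18.7 to 27.3) in exons and 14.4% (13.4 to 15.6) in introns. In the highest class, over 67.3, it was 65.9% (60.9 to 70.6) and 61.4% (59.7 to 63.0), with intervals that overlap. Peaks at 1 to 5 kb from a start gave 40.3% (36.9 to 43.9) in exons and 36.4% (35.0 to 37.7) in introns, again with overlapping intervals. Those at 5 to 20 kb gave 37.0% (33.2 to 41.0) and 30.2% (29.1 to 31.4), and those over 20 kb away 30.7% (23.4 to 39.2) and 21.0% (19.7 to 22.4). Shared peaks outside coding genes gave 39.4% (37.8 to 41.0) at 1 to 5 kb and 34.5% (33.4 to 35.7) at 5 to 20 kb. Both intervals overlap the exonic ones. Over 20 kb away that group gave 19.4% (18.4 to 20.5). By peak strength it gave 11.3% (10.25 to 12.4) in the lowest class and 60.4% (58.9 to 61.9) in the highest. Only 127 members were over 20 kb from a start. Gene density around the peaks was not tested.

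**Figure D4:**
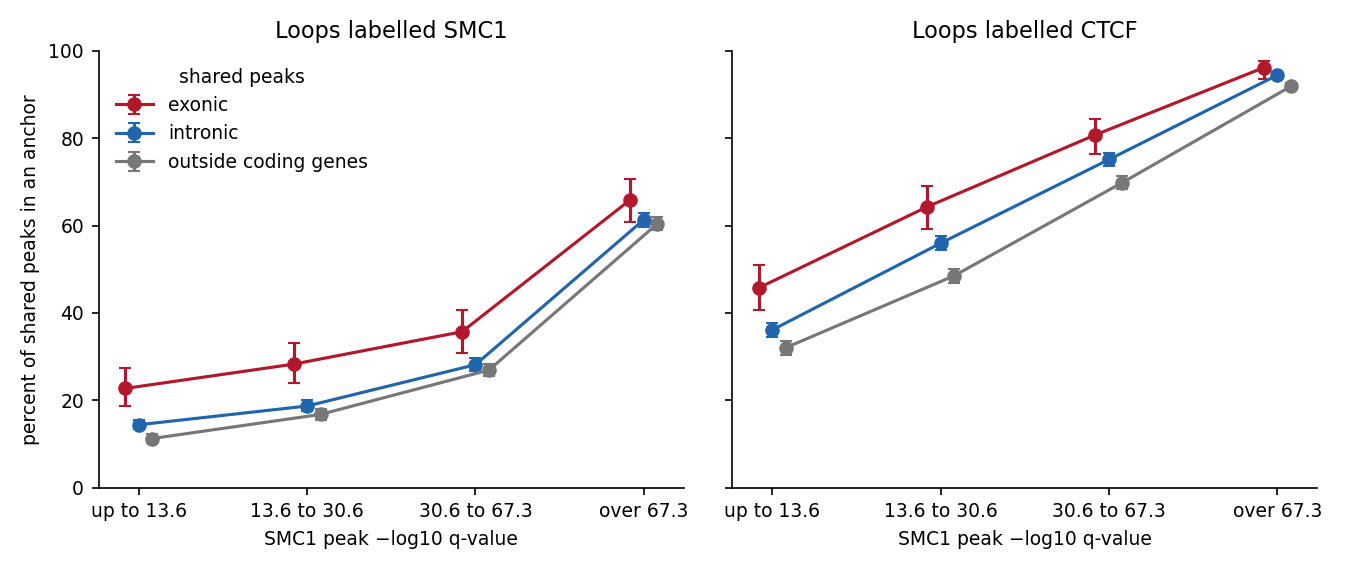
Percent of shared peaks that overlap an anchor of the loops labelled SMC1, left, and labelled CTCF, right, by SMC1 peak −log10 q-value, for exonic, intronic and other shared peaks. The 4 classes hold nearly equal numbers of exonic members and whiskers are 95% Wilson intervals. Exonic shares go from 22.7% to 65.9% on the left and from 45.7% to 96.2% on the right.

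Loops that started at members were shorter than at other shared peaks. The members anchored 1527 loops labelled SMC1 (5.50% of the list on these chromosomes) and 3832 labelled CTCF (4.83%). The median span was 110 kb and 120 kb, against 140 kb and 145 kb for intronic shared peaks. The median ratio of observed to expected read pairs was 3.76 (3.66 to 3.86) and 4.17 (4.07 to 4.24), against 4.16 and 4.32 for intronic peaks. An anchored member had a median of 2 loops labelled SMC1 and 3 labelled CTCF, with at most 21 and 36.

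The far anchor often held a gene start. In the list labelled SMC1, the other anchor lay within 1 kb of a coding start for 468 of 1550 loop ends (30.2%, 28.0 to 32.5), against 26.0% for intronic shared peaks. It held a shared peak away from starts that was no member for 670 (43.2%), another exonic shared peak for 46 (2.97%) and no SMC1 peak for 273 (17.6%). In the list labelled CTCF, 26.7% (25.3 to 28.1) reached a coding start, against 21.7% for intronic shared peaks. A start of the member's own gene was reached by 78 of 556 anchored members (14.0%) and 161 of 1045 (15.4%). Loops ran upstream of the gene's direction in 53.0% (50.6 to 55.4) and 52.5% (50.9 to 54.0) of pairs of member and loop. An anchor is wider than a peak: 57.8% of member anchors labelled SMC1 held no other SMC1 peak, and 14.7% came within 1 kb of a coding start.

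Loops left members mainly on the side that the motif faces. A motif on the plus strand faces right along the chromosome and one on the minus strand left. With the search within 50 bp from 10 bits, 357 of 516 loops labelled SMC1 (69.2%, 65.1 to 73.0) and 858 of 1120 labelled CTCF (76.6%, 74.0 to 79.0) ran to the facing side. Intronic shared peaks gave 83.1% and 87.0%. With the wide search the members gave 804 of 997 (80.6%, 78.1 to 83.0) and 1826 of 2142 (85.2%, 83.7 to 86.7), and intronic shared peaks 86.6% and 89.9%. In anchors with no second CTCF peak it was 85.7% (83.1 to 88.0) and 87.4% (85.7 to 88.8) for members, and 88.4% (87.6 to 89.2) and 91.5% (91.0 to 91.9) for intronic shared peaks. These intervals of exonic and intronic shared peaks were apart in the narrow and the wide search of both lists. They overlapped in the last comparison for loops labelled SMC1 but not for loops labelled CTCF. They count loops, and loops of 1 peak are not independent. By peak, all loops labelled SMC1 ran to the facing side at 60.1% (52.1 to 67.7) of exonic and 72.1% (69.3 to 74.7) of intronic peaks in the narrow search. In the wide search it was 69.5% (63.8 to 74.65) and 75.6% (73.7 to 77.4), with overlapping intervals. By peak, intervals also overlapped in both searches of the list labelled CTCF.

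The direction of loops had overlapping intervals for sense and antisense motifs. Sense motifs gave 82.0% (78.2 to 85.3) and antisense motifs 79.5% (75.9 to 82.7) in the list labelled SMC1, and 83.8% and 86.5% in the list labelled CTCF. Coding members gave 74.1% (68.5 to 79.1) and 3′ UTR members 85.1% (82.0 to 87.7) of loops labelled SMC1, with intervals that do not overlap. For loops labelled CTCF it was 82.9% (79.6 to 85.7) and 87.6% (85.7 to 89.3), where the bounds met. By peak the intervals overlapped. All loops labelled SMC1 ran to the facing side at 66.25% (55.4 to 75.65) of 80 coding and 72.3% (64.9 to 78.7) of 159 3′ UTR members. For loops labelled CTCF it was 70.2% (62.2 to 77.1) and 72.2% (66.45 to 77.3). Of the 272 members with a wide match and loops labelled SMC1, 189 had all of them on the facing side, 35 had none and 48 had loops both ways. Where both anchors held a motif, 245 of 387 loops labelled SMC1 with a member at an anchor (63.3%, 58.4 to 68.0) had motifs that point towards each other, against 70.8% (69.5 to 72.1) of loops without a member. In the list labelled CTCF it was 68.4% (65.0 to 71.7) against 71.6%.

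**Figure D5:**
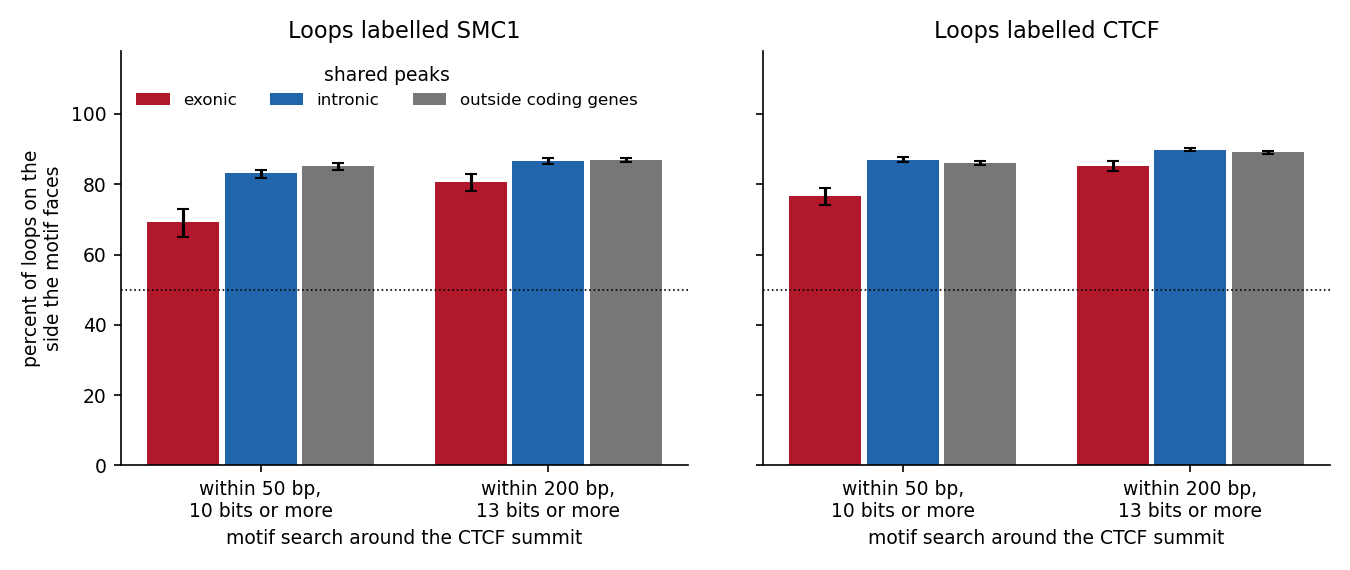
Percent of loops that leave a shared peak on the side its motif faces, for loops labelled SMC1, left, and labelled CTCF, right, in 2 motif searches around the CTCF summit. Bars are exonic (red), intronic (blue) and other shared peaks (grey) with 95% Wilson intervals, and the dotted line marks 50%. Exonic peaks give 69.2% in the narrow and 80.6% in the wide search on the left.

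The loops of the named sites belong to 5 kb anchors, which can hold more than the exon. BCAT2 had the most read pairs over both lists, 1670, with 21 loops labelled SMC1 and 15 labelled CTCF. Its summit lay in the last exon, 11 of 11, and its strongest loop in both lists reached the start of HSD17B14, a hydroxysteroid dehydrogenase gene, 40 kb away, with 103 read pairs where 31.8 were expected and with 161 where 37.6 were expected. The BCAT2 peak was 1027 bp and the ZC3H10 peak 1029 bp from an annotated start, a distance at which 1 anchor can hold both. TNFRSF1B, which encodes TNF receptor 2, held its peak in the 3′ UTR of exon 10 of 10. Its strongest loop in both lists ran 80 kb to the start of TNFRSF8, the CD30 gene, with 109 (expected 14.8) and 276 (expected 27.2) read pairs. ZC3H10, a zinc finger gene, was joined from its 3′ UTR to the start of SMARCC2, a BAF subunit gene, 60 kb away, with 132 (expected 38.9) and 197 (expected 32.9) read pairs.

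Other sites met no coding start at the far anchor of their strongest loop. CD84, a SLAM family receptor gene, held 1515 read pairs over both lists from its 7224 bp last exon. STAC3, a gene of muscle excitation-contraction coupling, held 1502 from its coding last exon, the one with the coding motif shown above. Its strongest loops spanned 30 kb, with 279 (expected 77.1) and 415 (expected 68.2) read pairs. TTLL8 held 1350, with strongest loops of 100 kb that had 99 (expected 17.4) and 183 (expected 20.3) read pairs. Both the STAC3 and the TTLL8 motif are on the minus strand and these loops ran left.

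SLC12A3 and GPR3 departed from this. At SLC12A3, the gene of the thiazide-sensitive sodium chloride cotransporter, the peak was modest (SMC1 fold enrichment 2.27) while 1456 read pairs met there, and the strongest loop of both lists, spanning 85 kb, left on the side opposite to the motif. At GPR3, a receptor gene with 1399 read pairs, the strongest loop labelled SMC1 ran to the facing side and the one labelled CTCF to the other side, 215 kb to the start of AHDC1. Over the 14 sites named for q-value or read pairs, 13 had a wide match. The strongest loop labelled SMC1 left on the facing side at 11 of 12 and the strongest labelled CTCF at 11 of 13. DHRS1 was among them, with a loop of 55 kb to the start of TINF2, a telomere shelterin gene.

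The 10 genes with 3 or more members differed in how these were spread. POLR1A, the gene of the largest subunit of RNA polymerase I, held 4: in its 3′ UTR of exon 34 of 34 were 2, with SMC1 fold enrichments of 4.68 and 1.97, and in exons of non-coding transcripts another 2, with 6.13 and 3.01. The peak of 6.13 alone had 16 loops labelled SMC1. KIF24, a kinesin gene, held 3, of which the one with the coding motif shown above had a fold enrichment of 2.74, under the 5.73 of a peak in the 3′ UTR. ZNF469 held 3 in 1 coding exon of 13409 bp, with 5.97, 4.75 and 3.54, no wide match, and 1 loop in all. NT5C1A, an AMP nucleotidase gene, held 3 in a last exon of 8258 bp. Of these, 2 had the same CTCF fold enrichment, 5.88, and the same CTCF −log10 q-value, 79.98. Members can be paired with 1 and the same CTCF peak, as 14 members were, so these are not separate CTCF values. The other genes were CWC27, N4BP1, SLC25A26, TBC1D24, THSD4 and ZBTB20, with 3 each.

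The gene lists are given as counts of genes that held a member, beside 7.01% of all coding genes. A list counts every gene with the summit in an exon, while the 7.01% takes 1 gene per member. No list was tested against that share. Of 24 B cell transcription factor genes, 4 (16.7%) held 1 member each. IRF4 held a peak in its 3′ UTR with an SMC1 fold enrichment of 1.956 and a CTCF fold enrichment of 8.73, and no loop in either list. MEF2B held one in its last coding exon (3.55), with a loop labelled CTCF back to its own start that had 83 read pairs. SPIB (2.52) and SPI1 (3.04), both ETS factors, held one each in the last exon. Of 21 B cell receptor signalling genes, LYN (3.46) and MALT1 (2.51) held one each in the 3′ UTR (9.52% of genes), and of 24 antigen presentation genes CIITA (2.95), the MHC class II coactivator, did (4.17%).

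Of 13 genes of the CTCF and cohesin machinery, 2 (15.4%) held a member, against 7.01% of all coding genes. NIPBL, the cohesin loader gene, held a peak in coding exon 17 of 47 with a fold enrichment of 3.91 and no loop. PDS5B, a cohesin regulator gene, held one in an exon of a non-coding transcript, with 3.61, a wide match of 16.5 bits and loops of 60 kb to its own start with 23 (expected 5.16) and 50 (expected 10.2) read pairs. Of 21 NF-kappaB pathway genes, 3 (14.3%) held a member: MAP3K14, the NIK kinase gene, with 3.67 at the coding motif shown above, TRAF5 with 4.90 and IKBKB with 3.61. Both MAP3K14 loops spanned 55 kb, with 30 and 54 read pairs.

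The gamma protocadherin cluster, in which 22 genes share their last exons, held 2 members in that shared 3′ exon, with SMC1 fold enrichments of 3.94 and 2.04 and no wide match. Both lay in the anchor of a 35 kb loop to the start of PCDHGC3, with 76 (expected 28.2) and 154 (expected 47.4) read pairs. Because the exon is shared, 22 of 53 clustered protocadherin genes are counted from 2 peaks. NOTCH3 (5.25) was the 1 gene of 9 Notch receptors and ligands (11.1%), COL5A2 (5.04) the 1 of 17 collagens (5.88%), and HOXC12 and HOXD10 the 2 of 39 HOX genes (5.13%), with 3 members. Of 504 genes with a ZNF symbol, 18 (3.57%) held 20 members, where 7.01% of all coding genes held one. The 3 with the highest SMC1 −log10 q-value were ZNF774 (fold enrichment 8.42), ZNF142 (8.35) at the coding motif shown above, and ZNFX1 (7.18).

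At the 1 kb distance, the members nearest to it were FAM163A at 1007 bp with an SMC1 fold enrichment of 6.63, NAT9 at 1009 bp with 4.89 and KRI1 at 1011 bp with 3.83. Exonic shared peaks that just missed it lay in HCRT at 999 bp with 7.73, CDCA5 at 994 bp with 5.09 and IER5 at 990 bp with 2.71.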

How the data were processed

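SMC1 FA-EGS HiChIP and CTCF FA HiChIP of the HG00731 LCL, with 2 replicates each, were analysed from 1 pooled peak list and 1 pooled loop list per target. Alignment by the authors was to hg38 with BWA-MEM. After duplicate removal they called peaks with MACS3 3.0.1, and loops with MAPS from those peaks. Pooling the replicates hides their spread, and duplicate removal leaves the depth per library unknown here. Fold enrichment is the deposited ratio of the summit signal to the local background, which depends on the region around each peak. The significance of a peak was deposited by the authors as −log10 of its q-value. In the loop lists the authors deposited a raw count of read pairs per pair of 5 kb bins, beside the expected number. These counts were not normalised between lists and sum to 788356 for the loops labelled SMC1 and to 2666327 for those labelled CTCF. Other columns were not used, and no column belonged to another sample.

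The members and gene lists were chosen with earlier results of these data known. Each peak was given 1 exon, of the canonical transcript first, then of a protein-coding transcript, then of the longest. The summit counted as coding if any transcript coded there. Where several CTCF peaks overlapped, the one with the highest −log10 q-value was taken. Expectation maximization gave the motif, with sequences reaching 100 bp each way from 3000 CTCF summits (highest −log10 q-value outside coding-gene exons and members) and controls 1 kb away. Shares carry 95% Wilson intervals and medians 95% intervals from the ranks. Sites named are the 8 members with the highest SMC1 −log10 q-value, the 8 with the most read pairs, the 5 genes with the most members (10 with ties at 3), members in the gene lists (all up to 5 genes, otherwise the top 3) and the 3 peaks on either side of 1 kb. The few remaining sites of this rule are not all printed. Sequences are reference hg38. The alternatives were other overlaps, distances, exon definitions, thresholds and motif searches. Functions were tested on simulated data. Software was pysam 0.24.0, pandas 2.3.3, SciPy 1.17.1, Matplotlib 3.10.9, NumPy 2.4.6 and Python 3.11.15.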

Additional observations from a re-analysis of the deposited data

How the results depend on the processing

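Of 113 values under alternatives, 81 stayed within the interval of the reported value, or within 1.5 times the reported count. The exonic share of shared peaks was 3.98% over 2500 bp from starts, 5.06% over 1 kb from the summit, 4.03% with exons of protein-coding transcripts only and 4.06% with both summits in an exon of the same gene. The last 2 settings gave 38.0% and 27.0% coding members. The last exon held 66.0% over 1 kb from the summit and 74.7% with both summits in an exon. Among members whose −log10 q-value reached 10 in both peak lists, 43.3% lay in anchors labelled SMC1 and 80.1% in anchors labelled CTCF, 25.3% held a motif, and the medians were 5.06 for SMC1 fold enrichment, 7.85 for CTCF fold enrichment and 44.1 for SMC1 −log10 q-value. An overlap of at least 50% of both peaks gave 23.8% with a motif and medians of 4.74, 7.29 and 35.8. A motif was found in 29.99% from 7 bits, 14.2% from 13 bits, 36.8% within 100 bp and 40.01% within 200 bp from 13 bits. The facing side then held 61.4%, 74.0%, 75.6% and 80.6% of loops labelled SMC1 and 69.8%, 83.1%, 80.2% and 85.2% of loops labelled CTCF, and 85.7% and 87.4% with no second CTCF peak in the anchor. The settings within 200 bp and without a second CTCF peak were chosen after seeing the data. The cause of these shifts was not tested beyond what each setting removes or adds. No paired analysis was possible because each list pools both replicates, and for the same reason no replicate could be left out. The pooled lists give no depth per library.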
